A study of Mus musculus with 82 samples.

Results

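The inbred mouse strains C3H/HeJ, CBA/J and CBA/CaJ form a small family within the classical laboratory strains, and their naive CD4 T cells are set here against those of other strains of mainly M. m. domesticus descent. Those are mostly classical inbred strains, but they include the wild-derived WSB/EiJ and KK.Cg-Ay/J, which carries the Ay allele of the agouti gene. The family is 6 of the 82 arrays of the series, namely the arrays titled for these strains, with 2 arrays for each of the 3 strains. It is compared with 33 other strain groups held on 68 arrays, while the 8 arrays of the Mus musculus strains of other subspecies (JF1/Ms, MSM/Ms, PWD/PHJ, CAST/EiJ) enter only the shared estimate of the spread between replicate arrays. Every array holds RNA of spleen cells sorted as positive for CD3, CD4 and CD62L, with cells bearing CD8, CD25 or other exclusion markers removed. All mice were male and untreated as far as the labels say, at 6 weeks of age by the sample labels and obtained at 5 weeks by the series description, and an array stands for a pool of 2 to 3 mice. The strains carry their own inbred backgrounds and no engineered allele is named for the family, so each difference is one between whole genetic backgrounds.

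C3H and CBA were both derived from the same cross, between a Bagg albino female and a DBA male, and CBA/J and CBA/CaJ are later branches of CBA. All 3 strains carry the k haplotype of the major histocompatibility complex. C3H/HeJ is widely used for its defect in the endotoxin receptor Tlr4, and C3H/HeJ and CBA/J, but not CBA/CaJ, carry the retinal degeneration allele of Pde6b. Naive CD4 T cells are resting lymphocytes that have not met their antigen and that circulate through lymphoid organs, for which they use CD62L.

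The sample labels give spleen and the sorting markers of naive CD4 T cells, while a sentence of the series description speaks of bone marrow granulocytes and gives another number of probes. Cd3e, part of the CD3 signalling module, ranged from 6372 to 7996 intensity units over the 6 family arrays, Cd4 from 5061 to 5448 and the homing receptor gene Ccr7 from 6212 to 6981. These ranges lay within those of the 33 other strain means. The B cell gene Ms4a1 was at 18.3 to 24.3 on the family arrays, against 20.4 to 111 in the other strain means. Cd8b1 was measured at 493 to 831, within the range of the other strain means (400 to 897). Mean log2 levels of the marker lists for B, CD8 T, natural killer, myeloid, neutrophil and erythroid cells on each family array lay within the range of the 33 other strain means. Replicate 2 of PL/J and replicate 2 of A/J stood apart, with B cell list means of 8.44 and 7.21 on the log2 scale against 5.74 to 5.95 on the family arrays. C57BR-titled arrays carry the background label CBA/CaJ, but they correlated best with each other (r = 0.995) and next with C57L/J, so they were kept as a group of their own among the 33. Across all probe sets each C3H/HeJ array correlated slightly better with both CBA/J arrays (r = 0.994) than with its own replicate (r = 0.9936). These correlations run over the same probe sets on every array and describe the arrays without a test.

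The main comparison asked which genes the 3 strains share against the 33 other strain groups. With the strain as the replicate, few genes set the family apart. Baiap2l1, which encodes an actin-bundling membrane adaptor, was higher, as was a dim probe set of Lgr4, a receptor for R-spondins, and Mrtfb, a coactivator of serum response factor, was lower. In limma on strain means these were the only 3 of 24922 probe sets past an adjusted p of 0.05 (0.012 percent), 2 higher (0.00803 percent) and 1 lower (0.00401 percent). At an unadjusted p under 0.05 there were 901 (3.62 percent), 497 higher (1.99 percent) and 404 lower (1.62 percent). That share is below the 0.05 that the threshold alone would pass where nothing differed, so it marks out no wider set. Baiap2l1 and Mrtfb also differed in each of the 3 strains at array level, which makes 2 shared probe sets (0.00803 percent), 1 higher and 1 lower (0.00401 percent each). In such bulk samples fewer cells of a type and less RNA per cell cannot be told apart, nor can a lower level and a mismatch between a strain's sequence and the probes. The count was 5 without replicate 1 of C3H/HeJ and 5 without replicate 1 of CBA/J, 9 without CBA/CaJ and 8 without CBA/J.

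Baiap2l1 had intensities of 82.1 and 80.8 in C3H/HeJ, 117 and 57.7 in CBA/J and 406 and 97.3 in CBA/CaJ, against strain means from 37.0 to 58.8 (median 47.3) in the 33 others. All 3 strain means lay above every other strain, although the lower CBA/J array fell just below the highest of them. Replicate 1 of CBA/CaJ stood far above the rest. Baiap2l1 averaged above 113, the overall median intensity that named genes had to pass in some strain, only in CBA/CaJ. A high value in the family is therefore partly fixed by the naming rule, while the strain-mean test used no such filter. The difference was 1.24 ± 0.13 on the log2 scale (SE, adjusted p = 6.13e-07). Its call in the strain-mean test was kept in every setting tried that held the probe set. These included the fits without replicate 1 of CBA/CaJ and without CBA/CaJ. The setting without the dimmest 40 percent of probe sets did not hold it. Nor did that with 1 probe set per symbol, the brightest, which also dropped the Mrtfb probe set. In that setting 1 probe set was called, higher, and 0 counted as shared. A brighter probe set of either gene was therefore not among the shared ones.

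Mrtfb stood at 286 and 227 in C3H/HeJ, 272 and 278 in CBA/J and 247 and 220.4 in CBA/CaJ, against strain means from 229 in DBA2-titled mice to 722 in WSB/EiJ (median 489). The difference was -0.95 ± 0.16 on the log2 scale (SE, adjusted p = 0.00652), and of the 33 others only the DBA2-titled group came down to its level. This call was lost without C3H/HeJ (adjusted p = 0.0983) and without CBA/CaJ (adjusted p = 0.135). Lgr4 lay low on the scale throughout, at 26.1 and 26.5 in C3H/HeJ, 15.9 and 19.4 in CBA/J and 22.2 and 24.8 in CBA/CaJ, against 13.7 to 18.9 (median 15.6) in the others. Its difference of 0.49 ± 0.07 (SE, log2, adjusted p = 0.00116) did not pass without C3H/HeJ (adjusted p = 0.200), and it falls outside the rule for named genes, chosen for mention after its values were seen.

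No probe set had all 6 family arrays outside the range of the 33 strain means. In 8 probe sets (0.0321 percent) the 3 strain means did lie outside it, 3 above (0.012 percent) and 5 below (0.0201 percent). The 3 above were Baiap2l1, Zfp781 and Dcun1d4, a cofactor gene of neddylation. Below were Mif4gd, a translation factor, the endothelial receptor gene Heg1, Rasl11b, Prr5l and Krtap31-2. Rasl11b, a small GTPase gene, stood at 83.4 and 77.2 in C3H/HeJ, 75.7 and 68.2 in CBA/J and 83.0 and 92.9 in CBA/CaJ, against 89.6 to 226 (median 123) in the others. For Rasl11b and Heg1 the lowest of the other strains was the DBA2-titled group, whose background label names DBA/1LacJ. The same held for Mrtfb, which is not 1 of the 8. That group was the highest for Dcun1d4, while for Baiap2l1 the highest was NON/ShiLtJ. The nearest strain is not given here for Zfp781, Mif4gd, Prr5l and Krtap31-2. These 8 were chosen by that position and, apart from Baiap2l1, none passed the strain-mean test, and their adjusted p values were 0.0715 for Mif4gd, 0.18 for Rasl11b and larger for the others.

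A wider set was taken from a fit to the arrays themselves, with 1 coefficient for each strain group, in which each of the 3 strains was set against the mean of the 33. In 138 probe sets (0.554 percent) all 3 strains differed the same way, 73 higher (0.293 percent) and 65 lower (0.261 percent), and 111 genes with a single symbol were among them. The 3 contrasts share the same 33 groups, and they measure the spread between pools of mice and not between strains. C3H/HeJ differed from the 33 in 629 probe sets (2.52 percent), 340 higher (1.36 percent) and 289 lower (1.16 percent). CBA/J did so in 464 (1.86 percent), 298 higher (1.2 percent) and 166 lower (0.666 percent). CBA/CaJ did so in 474 (1.9 percent), 236 higher (0.947 percent) and 238 lower (0.955 percent). The 138 fell to 73 without replicate 2 of C3H/HeJ, and to 79 and 77 without replicate 1 and replicate 2 of CBA/J and 86 and 81 without replicate 1 and replicate 2 of CBA/CaJ. None of the 138 was also called between C3H/HeJ and the CBA strains, and 1 of them, Baiap2l1, was called between CBA/J and CBA/CaJ.

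The shared differences were seldom private to the family. Over the 138 probe sets the median number of other strains that reached the level of the family, taken as its least extreme strain mean, was 5.5 of 33. In 4 probe sets no other strain did so, in 40 between 1 and 3 did, and in 24 more than 10 did. By strain, A/J and MRL/MpJ reached the level of the family in 44 of the 138 probe sets each, SEA/GnJ in 43, BALB/cByJ in 42 and CE/J, LGJ and the DBA2-titled group in 37 each, against a median of 28 over the 33 strains. The lowest numbers were 12 in C57L/J and C57BL/10J and 13 in C57BL/6J and in C57BR-titled mice. In 20 of the 138 the family mean lay between the quartiles of the other strains, 7 of them called higher and 13 lower.

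**Figure D1:**
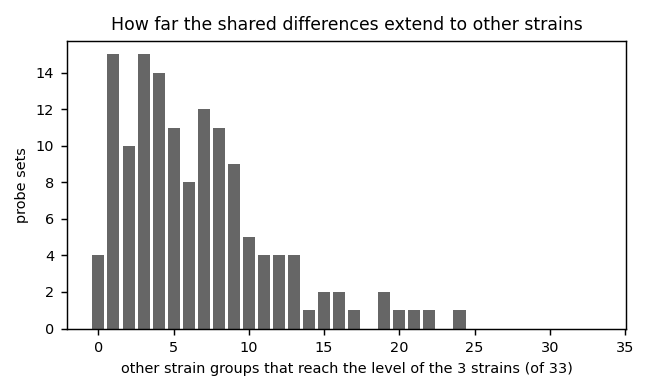
The bars count, for the 138 probe sets in which each of the 3 strains differed the same way from the mean of the 33 others, how many of the other strain groups (horizontal axis) reach the least extreme family strain mean. A total of 4 probe sets stand at 0 and 40 between 1 and 3.

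Among the genes higher in all 3 strains, the largest difference was in Pde5a, which encodes a phosphodiesterase that breaks down cyclic GMP. It stood at 347 and 363 in C3H/HeJ, 467 and 449 in CBA/J and 392 and 434 in CBA/CaJ, against a median of 49.3 in the others. Of the others only DDY/JclSidSeyFrkJ, at 430.0, came up to the family, and a few more stood between it and the rest. The family was higher by 2.61 on the log2 scale, with an SE of 0.57 and an adjusted p of 0.163 on strain means, while the array-level fit gave an adjusted p of 2.34e-36.

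Litaf, an endosomal membrane protein gene known from the response to lipopolysaccharide, followed the same pattern. Its intensities were 448 and 543 in C3H/HeJ, 508 and 502 in CBA/J and 514 and 479 in CBA/CaJ, against a median of 159 in the others. The DBA2-titled group, at 521, was the only other strain at the level of the family, with a few just below. The difference was 1.47 ± 0.29 (SE, log2), just short of the threshold on strain means (adjusted p = 0.0523).

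Further genes were higher in each of the 3 strains. Eif2ak2, the double-stranded RNA-activated kinase that halts translation, stood at 159 and 181 in C3H/HeJ, 160.4 and 159 in CBA/J and 139 and 129 in CBA/CaJ, against a median of 61.9 in the others, 5 of which reached the family (difference 1.16 on the log2 scale). Ifi44l, an interferon-induced gene, had 101 and 119.7 in C3H/HeJ, 131 and 134 in CBA/J and 105 and 118 in CBA/CaJ, against a median of 55.3, with 3 others reaching the family (0.87). The groups overlap for both genes because those few strains were as high. Pdk1, which restrains the entry of pyruvate into the mitochondrial cycle, was higher by 1.02 with 8 others at that level. Cnga1, a cyclic nucleotide-gated channel gene, was higher by 1.22 with 8 others at that level. Rps3a1, a ribosomal protein gene, was higher by 1.06 and Aqp11, a water channel gene, by 0.93, with 3 others at that level each. Zfp979 was higher by 2.54 with 6 others at that level, Chic1 by 1.11 with 3 and Atg4c, an autophagy protease gene, by 0.91 with 4. Trav14-1, a variable segment of the T cell receptor alpha chain, was higher by 1.37 than the mean of the 33, but 19 other strains reached the family, whose arrays (529 to 848) lay around the others' median of 738. The lowest strain was SWR/J at 13.2.

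Glo1 and Dnah8, neighbours on chromosome 17, rose together. Glo1, which encodes the methylglyoxal-detoxifying enzyme glyoxalase and lies in a segment known to be duplicated in some inbred strains, stood at 983 and 1159 in C3H/HeJ, 1006 and 1017 in CBA/J and 943 and 1020.2 in CBA/CaJ, against a median of 439.7 and a highest strain mean of 1694 in A/J. Dnah8, a dynein heavy chain gene, had 3170.2 and 2901 in C3H/HeJ, 3401 and 3276 in CBA/J and 2959 and 2132 in CBA/CaJ, against a median of 1555 in the others. A total of 5 other strains reached the family in Glo1 and 9 in Dnah8. The differences were 0.98 for Glo1 and 1.01 for Dnah8 on the log2 scale. Cep290, a gene of the ciliary base, and its neighbour Tmtc3 on chromosome 10 were also higher in all 3 strains, by 0.90 and 0.66. These runs hold 6 of the 111 genes, together with a pair on chromosome 11, St6galnac2 and BC018473, whose family values lay near the median of the others.

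Among the genes lower in all 3 strains, H2-Ob, the beta chain of the class II modulator DO, stood at 117 and 133 in C3H/HeJ, 105 and 109.9 in CBA/J and 112 and 83.3 in CBA/CaJ, against strain means from 89.1 in AKR/J, another strain of the k haplotype, to 1119 in BPL/1J (median 312). The family lay at the low end, where 7 other strains were as low, and its difference on the log2 scale was -1.48. Acsf2, a fatty acid activating enzyme gene, stood at 81.8 and 82.7 in C3H/HeJ, 76.1 and 92.6 in CBA/J and 92.7 and 105 in CBA/CaJ, against a median of 233 in the others, with 5 as low (-1.25).

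Ly6e, a glycolipid-anchored surface protein gene, had 3005 and 2166 in C3H/HeJ, 2147 and 2065 in CBA/J and 2158 and 2155 in CBA/CaJ, against a median of 5672 in the others (-0.93). A total of 7 other strains were as low, down to 1336 in BALB/cByJ. Mgst2, a microsomal glutathione transferase gene (-1.08), Phactr2, a phosphatase and actin regulator gene (-1.10), Acaa2, an enzyme gene of mitochondrial fatty acid oxidation (-0.77), and Pttg1, the securin gene (-0.77), were also lower, with 4 to 8 other strains as low. Of these, the call in each of the 3 strains was lost for Ly6e without replicate 2 of C3H/HeJ and for Mgst2 without replicate 2 of CBA/CaJ.

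For another group of genes the family lay among many other strains, while the highest of the 33 stood far above their median. Gdpd3, a phosphodiesterase gene, had 65.2 to 83.3 on the 6 family arrays, against a median of 77.7 and a highest strain mean of 6379.8 in RIIIS/J. Trim12a had 41.2 to 60.3 on the family arrays, against a median of 50.1 and 1617 in MA/MyJ. Trim30d had 20.1 to 26.0, against a median of 29.2 and 369 in MA/MyJ. Nlrp1a, an inflammasome sensor gene, had 22.8 to 33.6, against a median of 33.5 and 266 in SEA/GnJ. Cpm, a carboxypeptidase gene, had 72.6 to 118, against a median of 126 and 1116 in KK.Cg-Ay/J. For these genes and for Aass and Kcnma1 between 9 and 24 of the 33 others were as low as the family. In all of them every family strain averaged below 113, the intensity that named genes had to pass in some strain. The presence of a higher strain among the others is therefore fixed by the naming rule, while how far it stood above 113 is not. The family values of Trim30d, Nlrp1a, Aass and Kcnma1 also lay low on the scale, so the size of their differences may be understated.

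Of the 30 genes named for the shared set, 9 lost the call in each of the 3 strains in at least 1 setting without a family array, which leaves a strain 1 array. These were Aqp11, Atg4c, Baiap2l1, Chic1, Dnah8, Kcnma1, Ly6e, Mgst2 and Trav14-1, and Atg4c and Chic1 lost it also after median centring. Their differences kept their direction in every setting tried.

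**Figure D2:**
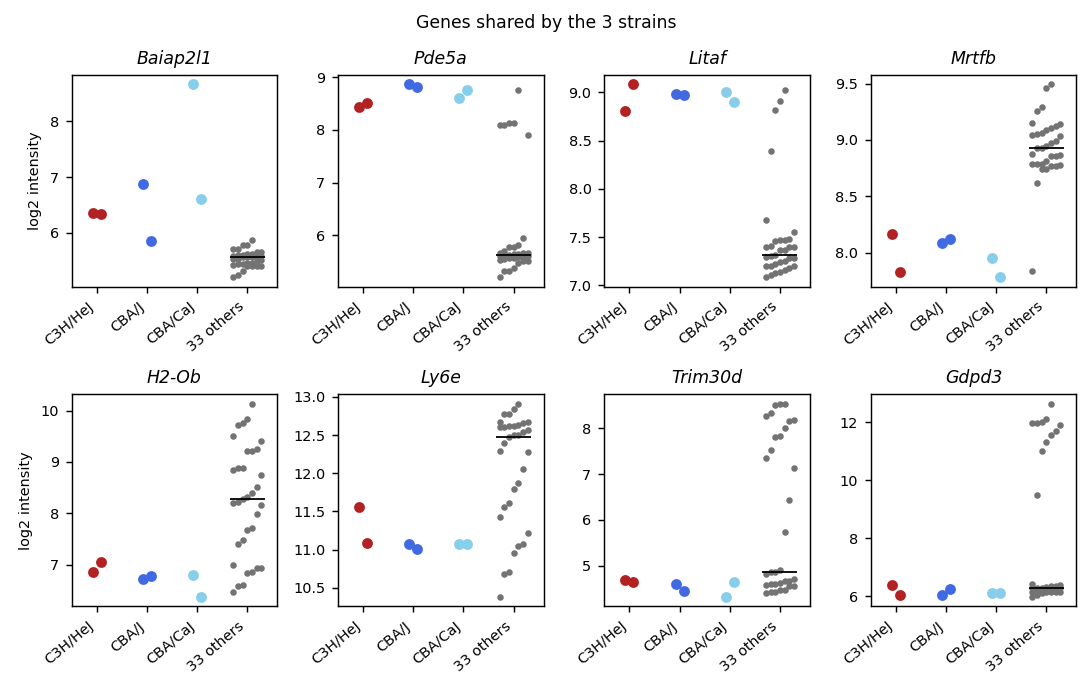
Log2 intensity in each array of C3H/HeJ, CBA/J and CBA/CaJ (large points, 2 arrays a strain) and in the 33 other strain groups (small points, strain means, with a line at their median) for 8 genes that differed in each of the 3 strains. Pde5a, Litaf and Mrtfb have 1 other strain at the level of the family, whereas for Gdpd3 and Trim30d the family lies near the median of the others.

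Gene lists covering T cell states, immune gene families and housekeeping processes were read in the same array-level fit, in which 5.59 percent of all probe sets (1394, with 757 higher and 637 lower) differed between the mean of the 3 strains and that of the 33, with a median difference over all probe sets of -0.0031. No list member passed the strain-mean test, so these counts describe differences beyond the spread between pools only. Of 33 interferon response genes 8 were higher and 1 was lower (median 0.09), including Eif2ak2, the deubiquitinase gene Usp18 (0.58), Oasl2 (0.56) and Samd9l (0.52). Against the 33, Oasl2 and Samd9l were called in C3H/HeJ (0.95 and 0.66) and in neither CBA strain, and 14 other strains reached the family in each. The median of the others in Samd9l was 1134 and their lowest was 15.2 in P/J. Among 10 guanylate-binding protein and immunity-related GTPase genes 3 were higher and 3 lower (median 0.13), with Iigp1 (0.87) and Gbp3 (0.77) higher and Gbp8 (-1.05) lower. In Gbp8 the strains differed in direction, at -1.34 in C3H/HeJ and -2.15 in CBA/J and 0.35 in CBA/CaJ, the last of which was not called, and in Iigp1 CBA/CaJ was not called alone (adjusted p = 0.109). The Ifi200 family of nucleic acid sensors had 3 higher and 1 lower of 9 (median 0.18), with Ifi214 (0.91) and Aim2 (0.71) higher and Ifi213 (-0.54) lower. In Ifi214, 13 other strains reached the family and CBA/CaJ taken alone was not called (adjusted p = 0.0828), and in Ifi213 only CBA/CaJ was called alone (-0.78).

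Regulatory T cell genes had 5 higher and 1 lower of 18 (median 0.13), among them Capg (0.62), the receptor gene Gpr83 (0.50) and Lrrc32, which presents latent TGF-beta (0.35). Foxp3, which defines that lineage, ranged from 446 to 644 on the family arrays, within the range of the other strains (304 to 926), and the sort had removed CD25-positive cells. Capg is also in the list of activated or memory T cell genes, where 3 were higher and 4 lower of 34 (median -0.02). Immediate early and stress genes had 1 higher and 6 lower of 34 (median -0.12), with the phosphatase genes Dusp6 (-0.42) and Dusp2 (-0.39), Rgs2 (-0.42) and Junb (-0.32) lower. Junb did not pass without replicate 1 of C3H/HeJ (adjusted p = 0.0783), nor without replicate 1 of CBA/CaJ or either CBA/J array.

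In the class II list 2 of 10 genes were lower (median -0.15), H2-Ob and H2-DMa, a chain of the peptide loading factor DM (-0.52). Class I and antigen processing genes had 3 higher and 1 lower of 17 (median 0.03), with H2-Q4 higher by 0.65 and the peptide transporter gene Tap2 by 0.21. Of 23 genes of naive T cell identity 3 were higher and 1 was lower (median 0.01), namely Il7r (0.24), Cd3g (0.22), Igfbp4 (0.20) and Dapl1 (-0.30). Igfbp4 lost its call without any 1 of the 6 family arrays, with an adjusted p from 0.0577 to 0.196. Of the marker lists for other cells, B cells (18 measured) and natural killer cells (13) had no member past the threshold. Klrd1 of 8 CD8 T cell genes (-0.47) and Car2 of 6 erythroid genes (-0.43) were lower. Cst3 (0.32) and Fcgr3 (0.21) of 18 myeloid genes and Cxcr2 of 15 neutrophil genes (0.55) were higher. Car2 lost its call after median centring, without the C57BR-titled arrays and without 5 of the 6 family arrays, each in turn (adjusted p up to 0.211). Cst3 lost it without replicate 2 of C3H/HeJ (adjusted p = 0.0841), and Fcgr3 without that array or replicate 2 of CBA/CaJ or CBA/J (up to 0.154).

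Tlr4 was near the bottom of the scale in all groups, at 21.6 and 19.0 in C3H/HeJ, 20.9 and 18.9 in CBA/J and 20.1 and 23.5 in CBA/CaJ, against a median of 22.4 in the others. These intensities say nothing of its known allele in C3H/HeJ. The family difference of Tlr4, -0.20, passed at array level (adjusted p = 0.027) and did not after median centring (adjusted p = 0.0566), nor without several single arrays. Pde6b was also dim, at 68.2 and 61.0 in C3H/HeJ, 63.8 and 56.0 in CBA/J and 46.4 and 60.6 in CBA/CaJ, against a median of 51.8. No contrast called it.

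The next comparison set C3H/HeJ against the CBA strains. Here single genes differed by far more than within the shared set. Klk1b22, Hbegf, Shroom4 and Nme7 were each higher in C3H/HeJ than on any CBA array and than in any of the 33 other strains. Named genes had to average above the overall median intensity in some strain, which Shroom4 did only in C3H/HeJ. The place of Shroom4 above all others is therefore partly fixed by the naming rule. In the array-level fit 170 probe sets (0.682 percent) passed, 91 higher (0.365 percent) and 79 lower (0.317 percent) in C3H/HeJ, with 53 of them at least 2-fold. In 150 of them (0.602 percent) the arrays of the groups did not overlap, 80 higher (0.321 percent) and 70 lower (0.281 percent). Over all probe sets 15.5 percent did not overlap, 8.25 percent higher and 7.23 percent lower. The count was 109 without replicate 2 of C3H/HeJ and 118 without replicate 1. The 24 genes with the largest differences, 12 each way, kept an adjusted p under 0.05 in the 17 alternative fits in which they were tested. Other genes named below did not always do so, as given beside them.

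Hbegf, a ligand of the epidermal growth factor receptor, had intensities of 1709.7 and 1733 in C3H/HeJ, against 100.04 and 116 in CBA/J and 110.3 and 119 in CBA/CaJ. The 33 other strain means ran from 92.0 to 134, so C3H/HeJ alone was high. The difference from the CBA strains was 3.95 ± 0.18 on the log2 scale (SE, adjusted p = 8.38e-24). Klk1b22, a kallikrein-related serine protease gene, stood at 1521 and 1079 in C3H/HeJ, against 32.9 and 29.4 in CBA/J and 30.9 and 27.1 in CBA/CaJ, a difference of 5.42 ± 0.20 (SE, adjusted p = 2.36e-27). Of the other strains the highest was 129S1/SvImJ at 468, against a median of 31.0.

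Shroom4, an X-linked gene of cytoskeletal architecture, had 760.4 and 702 in C3H/HeJ, against 53.4 and 53.7 in CBA/J and 56.1 and 47.2 in CBA/CaJ, with 41.0 to 70.0 in the others (3.80 ± 0.12, SE, adjusted p = 6.82e-31). Nme7, a member of the nucleoside diphosphate kinase family found at microtubules, had 2197 and 2387 in C3H/HeJ, against 302 and 302 in CBA/J and 249 and 223 in CBA/CaJ, with 146 to 347 in the others (3.10 ± 0.15, SE, adjusted p = 1.76e-22). For these 4 genes no other strain reached C3H/HeJ, and the CBA strains lay within the range of the others.

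Guanylate-binding proteins, GTPases induced by interferons that act against intracellular pathogens, were higher in C3H/HeJ at some members of the chromosome 3 cluster. Of 10 genes in the list of these proteins and immunity-related GTPases 3 passed, all higher, against 0.682 percent of all probe sets. They were Gbp5, Gbp7 and Irgc1. Gbp3, also on chromosome 3, did not pass (-0.41, adjusted p = 0.558), although its arrays did not overlap, at 255 and 288 in C3H/HeJ, against 394 and 370.0 in CBA/J and 311 and 366 in CBA/CaJ. Irgc1, on chromosome 7, stood at 257 and 222 in C3H/HeJ, against 280 and 249 in CBA/J and 92.4 and 96.8 in CBA/CaJ. Its call (0.59, adjusted p = 0.0225) came from CBA/CaJ, since C3H/HeJ and CBA/J overlap. That call was lost without replicate 1 or replicate 2 of C3H/HeJ, replicate 1 of CBA/CaJ or replicate 2 of CBA/J, each in turn. Gbp2b stood at 369.8 and 351 in C3H/HeJ, against 57.7 and 53.8 in CBA/J and 55.4 and 60.1 in CBA/CaJ. Gbp5 had 264 and 244 in C3H/HeJ, against 106 and 111 in CBA/J and 90.9 and 87.0 in CBA/CaJ. Gbp7 had 1356 and 1365 in C3H/HeJ, against 563 and 622 in CBA/J and 620.4 and 551 in CBA/CaJ. In each the C3H/HeJ arrays lay above all CBA arrays, with differences of 2.67 ± 0.12 (adjusted p = 3.26e-23), 1.37 ± 0.16 (adjusted p = 4.78e-08) and 1.21 ± 0.19 (adjusted p = 3.54e-05) on the log2 scale (SE). Set beside the others, the departure was not on the same side. For Gbp2b, CBA lay near the median of the others (65.3) and 3 of the 33 were as high as C3H/HeJ, whereas for Gbp5 and Gbp7 only 1 and 2 of the 33 were as low as the CBA mean, with medians of 177 and 999.7. Gbp5 and Gbp7 follow each other among the measured genes on chromosome 3. Of the 33 interferon response genes in the list only Mx2 passed in this comparison, higher in C3H/HeJ by 1.02 with an adjusted p of 0.049, and it failed in several alternative settings (adjusted p up to 0.434 without replicate 2 of C3H/HeJ).

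The promoters of these 3 genes are shown because interferon-induced genes are commonly read through the interferon-stimulated response element. The sequences are those of RefSeq on GRCm38.p6, from 250 bases before to 50 after the start, on the plus strand, and they are of the reference strain and not of C3H/HeJ or CBA. Capitals mark the core searched, GAAA, any 2 bases and GAAA on either strand.
Gbp2b (chr3:142594597-142594896): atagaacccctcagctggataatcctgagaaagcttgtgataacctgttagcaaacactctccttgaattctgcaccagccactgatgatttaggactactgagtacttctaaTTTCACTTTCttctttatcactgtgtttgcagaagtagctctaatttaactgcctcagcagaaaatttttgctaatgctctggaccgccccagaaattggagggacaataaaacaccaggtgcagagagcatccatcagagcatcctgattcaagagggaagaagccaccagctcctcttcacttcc
Gbp5 (chr3:142496684-142496983): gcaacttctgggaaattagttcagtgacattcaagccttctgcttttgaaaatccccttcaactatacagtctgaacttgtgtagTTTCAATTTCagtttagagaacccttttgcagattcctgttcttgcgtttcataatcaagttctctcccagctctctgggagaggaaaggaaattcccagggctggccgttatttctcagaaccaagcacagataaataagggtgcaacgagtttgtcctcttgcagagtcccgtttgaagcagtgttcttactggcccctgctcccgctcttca
Gbp7 (chr3:142530086-142530385): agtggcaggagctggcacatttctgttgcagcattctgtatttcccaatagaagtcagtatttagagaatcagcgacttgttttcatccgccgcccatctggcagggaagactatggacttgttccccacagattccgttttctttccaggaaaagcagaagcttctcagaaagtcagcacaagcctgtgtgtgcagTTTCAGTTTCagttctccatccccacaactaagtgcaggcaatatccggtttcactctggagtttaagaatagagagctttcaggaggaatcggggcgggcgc
Each window holds 1 such core, which 3.44 percent of all 32851 promoter windows of the same length hold on either strand. The core of the interferon gamma-activated site, TTCNNNGAA, which reads alike on both strands, was found 2 times each in the windows of Gbp5 and Gbp7 and in none for Gbp2b, against 8.3 percent of all windows. A match describes these letters only.

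Further genes higher in C3H/HeJ were Mtmr9, a myotubularin family gene (2.12), Donson, a DNA replication gene (1.60), the adhesion receptor gene Adgra2 (1.36), Clybl, a mitochondrial lyase gene (1.28), and Tns4, a focal adhesion gene (1.20). Mtmr9 stood at 3263 and 3681 in C3H/HeJ, against 797 and 759.9 in CBA/J and 768 and 873 in CBA/CaJ, and 2 of the 33 others were as high. For Donson it was CBA that departed. It had 493 and 495 in C3H/HeJ, against 179 and 171 in CBA/J and 158 and 147 in CBA/CaJ, with a median of 451 in the others, of which 1 was as low as the CBA mean.

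Among the genes lower in C3H/HeJ, Fig4, a phosphoinositide phosphatase gene of the endosomal system, stood at 106 and 106 in C3H/HeJ, against 436 and 416 in CBA/J and 459.5 and 431 in CBA/CaJ. The 33 others ran from 327 to 497, so C3H/HeJ alone was low (difference -2.04 ± 0.11, SE, log2, adjusted p = 3.46e-21). Rasgrf2, an exchange factor gene for Ras, had 47.1 and 60.3 in C3H/HeJ, against 257 and 226 in CBA/J and 245 and 215 in CBA/CaJ (-2.14 ± 0.14, SE, adjusted p = 1.37e-16). There the CBA mean lay above all 33 others and 7 of them were as low as C3H/HeJ.

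Vcl, the gene of the focal adhesion protein vinculin, stood at 58.1 and 65.2 in C3H/HeJ, against 144 and 123 in CBA/J and 123 and 138 in CBA/CaJ (-1.10). St3gal6, a sialyltransferase gene, had 278 and 257 in C3H/HeJ, against 578 and 575 in CBA/J and 623 and 565 in CBA/CaJ (-1.13). For both the arrays of the groups stood well apart, and 9 and 5 of the 33 others were as low as C3H/HeJ. Also lower were Zfp949 (-1.29), Syt14 (-1.09), Fry (-1.04), the ubiquitin ligase gene Rnf216 (-1.02), Cmtm7, the sterol transfer gene Stard4 (-0.98), the calcium-dependent kinase subunit gene Camk2b (-0.96) and Tmie (-0.96). Syt14 was high in CBA/J alone of the 3 strains.

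C3H/HeJ lay farther than the CBA mean from the median of the 33 others in 105 of the 170 probe sets, and the CBA mean lay farther in 65. C3H/HeJ was above all 33 in 30 and below all in 7, while the CBA mean was above all in 6 and below all in 5. In 122 of the 170 neither was outside the range of the other strains.

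**Figure D3:**
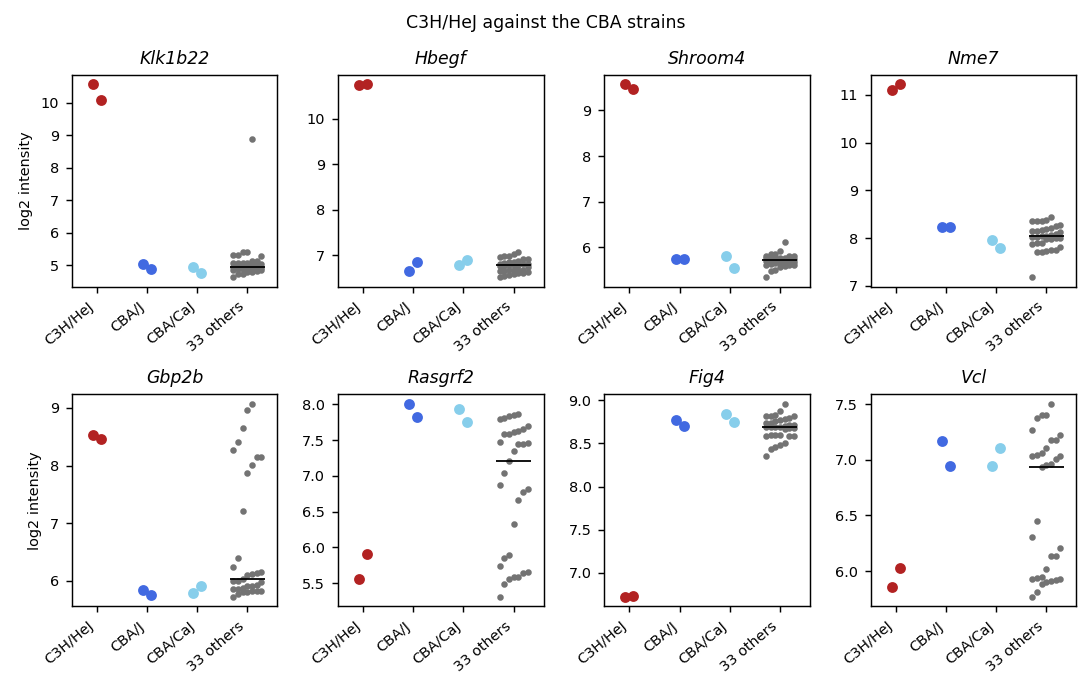
Log2 intensity in each array of C3H/HeJ, CBA/J and CBA/CaJ (large points) and in the 33 other strain groups (small points, strain means, with a line at their median) for 8 genes that differed between C3H/HeJ and the CBA strains. Klk1b22, Hbegf, Shroom4 and Nme7 are higher in C3H/HeJ than in any other group, Fig4 is lower in it than in any other, and for Rasgrf2 the CBA mean lies above the others.

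Cd8b1, which marks CD8 T cells, was lower in C3H/HeJ, at 493 and 555, against 831 and 713 in CBA/J and 801 and 764 in CBA/CaJ (-0.57, adjusted p = 0.00443, and 0.286 without replicate 1 of C3H/HeJ). It was the only 1 of 8 genes of the CD8 T cell list to pass, the list means of all family arrays (6.41 to 6.55, log2) lay within the range of the other strain means (6.25 to 6.92), and its part in the other differences was not tested.

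Surface receptors and cytokine receptors that bear on T cell control also differed. Cd96, an inhibitory receptor gene, stood at 1284 and 1579.6 in C3H/HeJ, against 1311 and 1483 in CBA/J and 3174 and 2676 in CBA/CaJ. Its call between C3H/HeJ and the CBA mean (-0.50, adjusted p = 0.0019) came from CBA/CaJ, since C3H/HeJ and CBA/J overlap, and it was lost without replicate 1 of C3H/HeJ (adjusted p = 0.482) and after median centring (adjusted p = 0.0596). Ifnar2, a chain of the type I interferon receptor, had 791 and 914 in C3H/HeJ, against 1394 and 1320.0 in CBA/J and 1528 and 1256 in CBA/CaJ (-0.69, adjusted p = 9.89e-05, and 0.0587 without replicate 1 of C3H/HeJ). Il10ra, a chain of the interleukin receptor that dampens inflammation, had 292 and 365 in C3H/HeJ, against 217 and 217 in CBA/J and 228 and 211 in CBA/CaJ (0.58, adjusted p = 0.000851, and 0.315 without replicate 2 of C3H/HeJ). Of 27 cytokine receptor genes 1 was higher and 2 were lower, against 0.682 percent of all probe sets. The median difference of that list was 0.02, beside 0.0097 over all probe sets.

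Of the 137 genes called, 33 lay on chromosome 9, 13 on chromosome 16 and 10 on chromosome 11, with fewer on each of the others. These numbers were not set against the genes measured on each chromosome. Neighbouring genes changed together in 6 runs, which hold 13 of the 137 genes called. The longest was on chromosome Y, where Kdm5d, a histone demethylase gene, Eif2s3y, a translation factor gene, and Uty, another demethylase family gene, were all higher in C3H/HeJ. Kdm5d stood at 1426 and 1356 in C3H/HeJ, against 764 and 749 in CBA/J and 702 and 677 in CBA/CaJ. Eif2s3y had 2071 and 2069 in C3H/HeJ, against 962 and 1053 in CBA/J and 1032 and 895 in CBA/CaJ. Uty had 829 and 929 in C3H/HeJ, against 461 and 469.6 in CBA/J and 472 and 460.2 in CBA/CaJ. C3H/HeJ lay above all 33 other strain means for each, whose highest were 893, 1215 and 614, all in WSB/EiJ. The differences on the log2 scale were 0.95 ± 0.17 for Kdm5d (adjusted p = 0.000298), 1.07 ± 0.20 for Eif2s3y (adjusted p = 0.000536) and 0.91 ± 0.19 for Uty (adjusted p = 0.00288). Uty did not pass without replicate 2 of C3H/HeJ (adjusted p = 0.166).

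The other runs were pairs, with Gbp5 and Gbp7 described above. On chromosome 9 Lca5 (0.68) and Sh3bgrl2 (0.59) were higher in C3H/HeJ, and the hydrolase genes Abhd14a (-0.59) and Abhd14b (-0.67) and the genes Tmie (-0.96) and Als2cl (-0.92) were lower. Plcxd2 (-0.57) and its neighbour Cd96 were lower on chromosome 16. Sh3bgrl2, Abhd14b, Plcxd2 and Cd96 each lost the call without at least 1 of the 6 arrays, with adjusted p up to 0.492 for Sh3bgrl2 without replicate 1 of C3H/HeJ. Whether probes of neighbours overlap was not tested, as probe sequences were not used here.

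**Figure D4:**
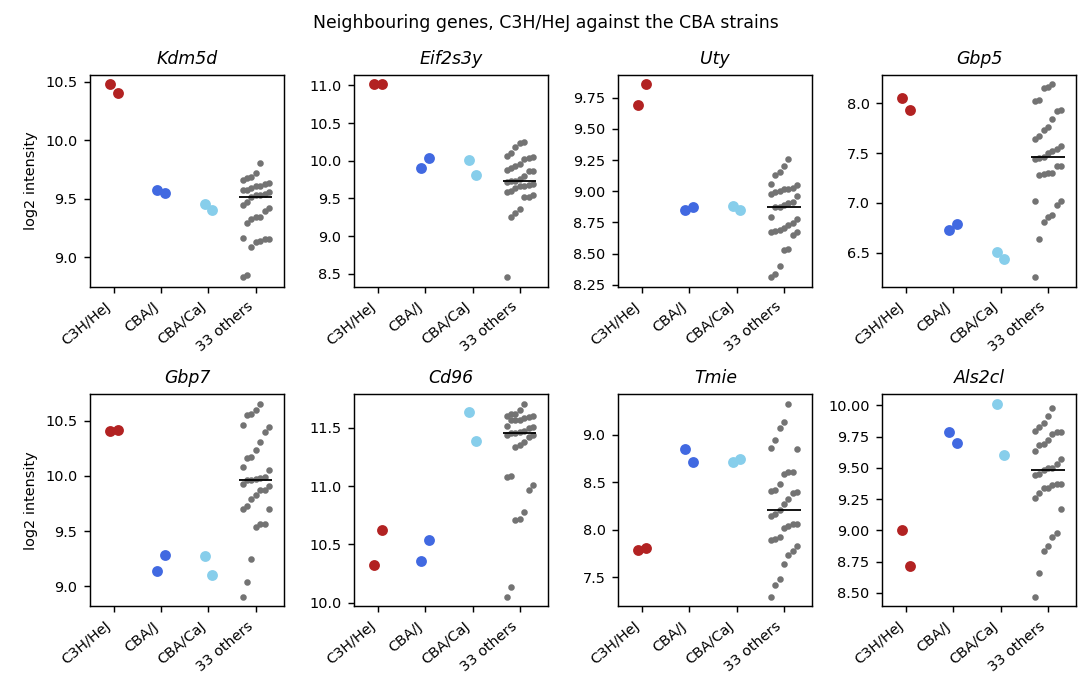
Log2 intensity in each array of C3H/HeJ, CBA/J and CBA/CaJ (large points) and in the 33 other strain groups (small points, strain means, with a line at their median) for 8 genes in runs of neighbours. C3H/HeJ lies above every other strain mean for Kdm5d, Eif2s3y and Uty, and its Cd96 values overlap those of CBA/J.

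The last comparison was within CBA, between CBA/J and CBA/CaJ. Despite their common name, the strains differed in the genes named below by -3.94 (Slc15a2) to 3.49 (H60b) on the log2 scale. In the array-level fit 90 probe sets (0.361 percent) passed, 58 higher (0.233 percent) and 32 lower (0.128 percent) in CBA/J, and 43 of them differed at least 2-fold. The count was 56 without replicate 1 of CBA/J. With only the 6 family arrays in the fit it was 148, 54 higher and 94 lower in CBA/J, so the balance of directions turned. C3H/HeJ lay nearer to CBA/J than to CBA/CaJ in 63 of the 90 and nearer to CBA/CaJ in 27, and its mean fell between them in 59.

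H60b, a ligand of the activating receptor NKG2D, stood at 212 and 166 in CBA/J, against 15.8 and 17.6 in CBA/CaJ, with 264 and 144 in C3H/HeJ (3.49 ± 0.29, SE, log2, adjusted p = 1.22e-12). The table used here gives no background level, and the CBA/CaJ values lie so low on the scale that the size of this difference may be understated. CBA/CaJ was low, near the lowest of the 33 others (16.9 in DDY/JclSidSeyFrkJ, median 308). Ctse, the gene of the protease cathepsin E, had 5733 and 5689.8 in CBA/J, against 707 and 677 in CBA/CaJ, with 774 and 730.4 in C3H/HeJ (3.04 ± 0.15, SE, adjusted p = 1.25e-21). Coro2a, an actin regulator gene, had 427 and 489 in CBA/J, against 92.5 and 64.8 in CBA/CaJ, with 89.6 and 74.4 in C3H/HeJ (2.56 ± 0.19, SE, adjusted p = 9.23e-15). The median of the 33 others in Ctse was 5212, nearer to CBA/J. For Ctse and Coro2a C3H/HeJ stood with CBA/CaJ, and for H60b with CBA/J.

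Plppr1, a lipid phosphatase-related membrane protein gene, was high in CBA/J alone, at 152 and 176, against 56.7 and 58.5 in CBA/CaJ, with 60.9 and 54.6 in C3H/HeJ and at most 70.0 in the 33 others (1.50 ± 0.17, SE, adjusted p = 1.8e-08). Plppr1 averaged above the overall median intensity only in CBA/J, so its place above all others is partly fixed by the naming rule. Also higher in CBA/J were Syt14 (1.62), Irgc1 (1.48), the apoptosis inhibitor gene Aven (1.24) and Igsf23 (1.24). Irgc1, of the immunity-related GTPases, and its neighbour Plaur, the urokinase receptor gene (0.97), formed the only run of neighbours, and C3H/HeJ was at the level of CBA/J for both.

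Slc15a2, a transporter gene for small peptides, was lower in CBA/J, at 29.1 and 33.9 in CBA/J, against 474 and 490.1 in CBA/CaJ, with 32.3 and 35.3 in C3H/HeJ (-3.94 ± 0.37, SE, log2, adjusted p = 6.73e-11). With the values of CBA/J and C3H/HeJ low on the scale, this size too may be understated. Most of the 33 others were low (median 34.0), with a highest strain mean of 606 in SWR/J. Atp8b4, a phospholipid flippase gene, had 89.5 and 90.5 in CBA/J, against 760.2 and 679.8 in CBA/CaJ, with 102 and 104 in C3H/HeJ (-3.00 ± 0.19, SE, adjusted p = 4.17e-17). Here the median of the others was 552, so C3H/HeJ and CBA/J shared the low level.

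Gbp8, a guanylate-binding protein gene on chromosome 5, had 181 and 192 in CBA/J, against 1189.6 and 935 in CBA/CaJ, with 264 and 405 in C3H/HeJ (-2.50 ± 0.23, SE, adjusted p = 6.47e-11). Gpr174, an X-linked receptor gene for lysophosphatidylserine, stood at 171 and 142 in CBA/J, against 483 and 524 in CBA/CaJ, with 385 and 479.7 in C3H/HeJ (-1.69 ± 0.22, SE, adjusted p = 3.3e-07). No other strain was as low as CBA/J, the lowest being BTBR T+ tf/J at 328. Also lower in CBA/J were Cd72 (-1.99), a lymphocyte receptor gene, Slc1a5 (-1.56), which takes up glutamine, Sfi1 (-1.38), a centrosome gene, and Pde3b (-1.19), a cyclic nucleotide phosphodiesterase gene. Pde3b lost its call without replicate 2 of CBA/CaJ (adjusted p = 0.234).

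Genes of T cell surface proteins were among the list members that differed. Of 34 activated or memory T cell genes 2 were higher in CBA/J, Cd44 and Nt5e, with a list median of -0.002 and a lowest difference of -0.38. Of 19 costimulatory and checkpoint receptor genes Tnfrsf14 was higher and Cd96 lower (median 0.15). Over all probe sets 0.361 percent passed. Cd96, whose values stand above, was lower in CBA/J (-1.06, adjusted p = 4.9e-09). Tnfrsf14, the receptor for the ligand LIGHT, had 2419 and 2118 in CBA/J, against 1142 and 1107 in CBA/CaJ, with 2773 and 2080.4 in C3H/HeJ (1.01, adjusted p = 2.05e-07). Cd44, an adhesion receptor gene that marks memory T cells, had 263 and 266 in CBA/J, against 141 and 163 in CBA/CaJ, with 172 and 176 in C3H/HeJ (0.81, adjusted p = 1.25e-06). Nt5e, which encodes the adenosine-producing enzyme CD73, had 169 and 173 in CBA/J, against 101 and 73.5 in CBA/CaJ, with 160.5 and 215 in C3H/HeJ (0.99, adjusted p = 0.00222). C3H/HeJ stood with CBA/J for Cd96, Tnfrsf14 and Nt5e and with CBA/CaJ for Cd44.

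**Figure D5:**
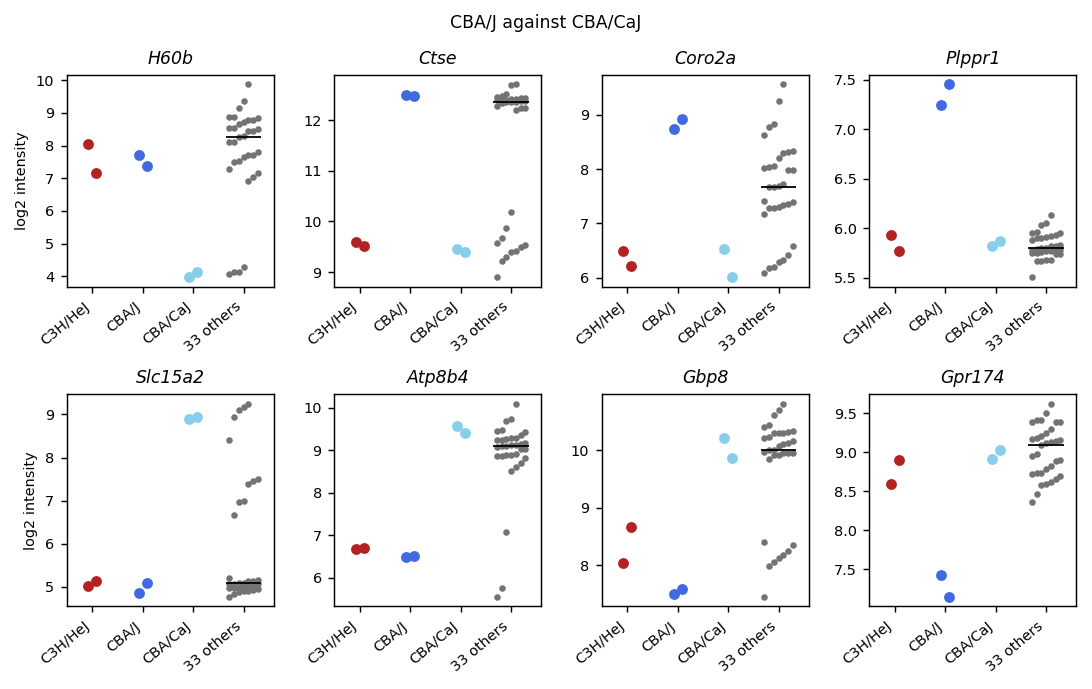
Log2 intensity in each array of C3H/HeJ, CBA/J and CBA/CaJ (large points) and in the 33 other strain groups (small points, strain means, with a line at their median) for 8 genes that differed between CBA/J and CBA/CaJ. C3H/HeJ stands with CBA/J for H60b, Slc15a2 and Atp8b4 and with CBA/CaJ for Ctse and Coro2a, and Plppr1 and Gpr174 are outside all other groups in CBA/J.

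Rps3a1, Sfi1, Klk1b22, Zfp979, H60b and the Gbp, Ifi200 and Trim genes have close relatives, and which copy a probe set reads was not tested.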

How the data were processed

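Gene expression was measured in sorted naive CD4 T cells on Affymetrix ST1.0 arrays. The deposited table holds 1 linear intensity for each of 24922 probe sets and 82 arrays, normalized by the authors, and the submitters' processing notes list Affymetrix Power Tools and RMA, whose versions are not given in the sources used here. Array medians were 109 to 113 in the family and 102 to 142 over all arrays. The number of arrays limits the precision.

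The log2 of each intensity was used as it stood, without a filter. The 82 arrays form 40 strain groups by title and background label, 38 with 2 arrays, C57BL/6J with 5 and SWR/J with 1. C57BR-titled and DBA2-titled arrays, whose background labels name CBA/CaJ and DBA/1LacJ, were kept as groups of their own. Replicate arrays are pools that the series calls biological replicates.

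Tests used limma 3.58.1 in R 4.3.3 with Benjamini-Hochberg adjustment over all probe sets and a threshold of 0.05. The family was tested on strain means (3 against 33). C3H/HeJ against the mean of the CBA strains, CBA/J against CBA/CaJ and each strain against the 33 were contrasts in 1 fit to all 82 arrays (42 residual degrees of freedom, 8.09 added by the prior). The array-level set of probe sets that differ in each of the 3 strains was added after the strain-mean test had given 3 calls. Scripts were tested on simulated data.

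Symbols came from the platform annotation (21425 probe sets with 1 symbol, 1399 with several, 2098 with none). Genes were named where a probe set had a single symbol, not a provisional one, and at least 1 strain averaged above 113, the overall median intensity, and were read from their most significant probe set: the 15 largest each way for the family with all 6 arrays on 1 side of the mean of the 33, the 12 largest each way without overlap for C3H/HeJ against CBA, and the 8 largest for CBA/J against CBA/CaJ, with up to 4 members of each of 32 gene lists, Tlr4, Pde6b, Glo1 and runs of neighbours. List genes were represented by their brightest probe set. Gene order came from GRCm38.p6 and was used for neighbours only. The family, lists and naming rule were chosen with earlier results of these data known. Alternatives were other normalizations, a filter, an offset, another prior, 1 probe set per symbol and leaving out arrays or strains.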

Additional observations from a re-analysis of the deposited data

Results flagged for a closer look

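Among 54 sets of family or CBA arrays tested, 5 genes had 1 array far from the rest by Dixon's criterion, where chance flags about 1 in 20. Baiap2l1 stood at 406 on replicate 1 of CBA/CaJ, against 57.7 to 117 on the other family arrays. Dnah8 stood at 2132 on replicate 2 of CBA/CaJ, below the other 5 arrays. Nlrp1a stood at 22.8 on replicate 1 of CBA/J, Ly6e at 3005 and Acaa2 at 328 on replicate 1 of C3H/HeJ.

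Baiap2l1 also differed between the CBA strains, by -1.28 on the log2 scale for CBA/J minus CBA/CaJ (limma, adjusted p = 0.00408). This call rests on single arrays. It was lost without replicate 1 of CBA/CaJ (difference -0.25, adjusted p = 0.965), without replicate 2 of CBA/J (-0.77) and with only the 6 family arrays in the fit (adjusted p = 0.574).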

How the results depend on the processing

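The strain-mean test of the family, with 3 probe sets called, gave 9 after quantile normalization, 1 without the dimmest 40 percent of probe sets, 1 with 1 probe set per symbol, 6 without replicate 2 of PL/J and of A/J, 6 with the 4 strains of other subspecies among the others, 1 with a 2-fold minimum, 3 to 5 on leaving out each family array and 3 to 9 on leaving out each strain. With arrays in place of strain means it gave 1394, and 1421 with the replicate block. The planned count of probe sets called in that test and in each of the 3 strains was 2 (Baiap2l1 and Mrtfb). It became 5 after quantile normalization, 1 without the dimmest 40 percent, 0 with 1 probe set per symbol, 4 without replicate 2 of PL/J and of A/J, 0 with a 2-fold minimum, and 1 to 3 on leaving out each family array. The 138 probe sets differing in each strain became 23 with a 2-fold minimum and 73 to 99 on leaving out each family array, which leaves fewer arrays to test. C3H/HeJ against CBA gave 109 to 147 on leaving out each array and 53 with a 2-fold minimum, and CBA/J against CBA/CaJ gave 56 to 93, 43 with a 2-fold minimum and 148 with only the 6 family arrays, of which 36.5 percent were higher in CBA/J against 64.4 percent in the full fit. Where no construction of the setting shows it, the cause was not tested. Replicate numbers did not pair the arrays (correlation of deviations -0.0049, 0.06 and -0.082), and the replicate block gave 175 calls for C3H/HeJ against CBA and 93 for CBA/J against CBA/CaJ. Where a named difference was tested in the other settings, it did not change direction. Some were not tested there, among them Tnfrsf14, Cd44 and Nt5e between the CBA strains, Tmtc3 and Cep290 in the family, and Pde6b.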
